A study of Homo sapiens with 12 samples.

Results

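The results concern 10 long non-coding RNAs in an immunoprecipitation of the RNA-binding protein ADAR3 from U373-MG cells, a human glioblastoma line: NEAT1, MALAT1, KCNQ1OT1, TUG1, NORAD, OIP5-AS1, PVT1, FTX, MEG3 and MIAT. They were chosen by gene ID, with earlier results of these data known, and make up 10 of the 31707 genes listed in the deposited tables. The study asks which RNAs endogenous ADAR3 associates with. There were 3 groups of 4 libraries, all from U373-MG cells crosslinked with ultraviolet light at 150 mJ/cm2 before they were lysed and sonicated, with no other treatment labelled. The groups are called ADAR3 IP (immunoprecipitation with ADAR3 antibody), pre-immune IP (immunoprecipitation with serum taken before immunisation) and input (RNA without immunoprecipitation). Ribosomal RNA was depleted, libraries were amplified for 15 cycles, and input libraries were made from 1 µg of total RNA while IP libraries took all the RNA recovered, so amounts recovered were not compared. The labels call the molecule polyA RNA although the protocol describes ribosomal RNA depletion. Markers of the cell type were not analysed here. Nothing in the labels ties replicates to separate cultures, so the p-values below cover only how these libraries vary, and that variation may be technical.

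ADAR3 belongs to the family of enzymes that convert adenosine to inosine in double-stranded RNA, but no editing activity of its own is known, and it binds both double- and single-stranded RNA. Long non-coding RNAs are transcripts that act largely without being translated. Some build nuclear bodies (NEAT1 the paraspeckle, MALAT1 in nuclear speckles), some act on chromatin near the gene that makes them, and others, such as NORAD, work in the cytoplasm by holding RNA-binding proteins. Double-stranded stretches, often formed by inverted Alu repeats, are the substrate that the editing members of the family act on, and edited transcripts of this kind can be kept in paraspeckles.

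NORAD, NEAT1 and MALAT1 are the RNAs on which the results turn. The starts held for NORAD and MALAT1 are shown to identify these RNAs, and none was held for NEAT1. RefSeq (GRCh38.p14) held a start for NORAD and 2 starts for MALAT1 in the tables used here. NORAD lies at chr20:36045618-36050960 on the minus strand and MALAT1 at chr11:65497738-65506516 on the plus strand. Each line gives 70 bases, 5′ to 3′. The 20 bases before the start are in lower case and the first 50 bases of the RNA, as DNA letters, in capitals. The windows are chr20:36050911-36050980 for NORAD, chr11:65497718-65497787 for the upstream MALAT1 start and chr11:65499025-65499094 for the downstream one.
NORAD: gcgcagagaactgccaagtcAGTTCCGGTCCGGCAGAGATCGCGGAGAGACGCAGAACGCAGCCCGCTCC
MALAT1, upstream start: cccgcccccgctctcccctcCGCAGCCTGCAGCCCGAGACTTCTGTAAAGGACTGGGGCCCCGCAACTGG
MALAT1, downstream start: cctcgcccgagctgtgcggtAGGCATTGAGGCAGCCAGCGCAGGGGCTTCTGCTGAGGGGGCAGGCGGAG
The transcribed stretches were 68% G and C in NORAD and 66% and 70% in the upstream and downstream MALAT1 starts. The deposited values are per gene, so the reads cannot be placed within these RNAs.

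Levels are given as CPM, whole reads recovered from the deposited values and scaled to 1000000 reads in genes per library. The ADAR3 IP libraries held 23999234 to 30156884 reads in genes, the pre-immune IP libraries 1875461 to 4946149 and the input libraries 4873428 to 12772412. The 10 RNAs together took 1.48% ± 0.139 of ADAR3 IP reads, 1.01% ± 0.0605 of pre-immune IP reads and 0.851% ± 0.0866 of input reads (SD, n = 4 each). The lowest ADAR3 IP library, at 1.29%, lay above the highest pre-immune IP library, at 1.07%, and the highest input library, at 0.949%. NEAT1 and MALAT1 accounted for most of these reads. The other 8 took 0.248% ± 0.00923 for ADAR3 IP, 0.145% ± 0.0173 for pre-immune IP and 0.103% ± 0.00619 for input.

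Non-specific recovery was measured by the pre-immune IP, and the first question is which of the RNAs took a larger share of the ADAR3 IP than of it. The difference was tested with limma on log2(normalized count + 1) over the 11112 genes whose mean over the 8 IP libraries was at least 50, with Benjamini-Hochberg adjustment over all of them. OIP5-AS1, with a handful of reads, fell under this minimum, and the other 9 RNAs were tested. NORAD and NEAT1 were higher in ADAR3 IP, 2 of 9, where 2.33% of all tested genes were called higher. Such shares are printed here and below for scale only, because the RNAs were chosen with earlier results known. None of the 9 was called lower, where 1.74% of all tested genes were, although MALAT1 had an unadjusted limma p of 0.00586. Over all tested genes limma called 259 higher and 193 lower, and with TMM factors 449 higher and 129 lower. The median log2 fold change was 0.68 over the 9 RNAs and 0.25 over all genes tested. Of the 9, 7 were above 0, among them MIAT, whose sign was not settled. Most of all tested genes were above 0 as well: 35.7% lay below FTX, which stood at -0.03. The median over all tested genes depends on the tool and scaling: it was 0.39 with TMM factors and -0.00063 with edgeR. With DESeq2, which tested 17946 genes, it was 0.05.

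**Figure D1:**
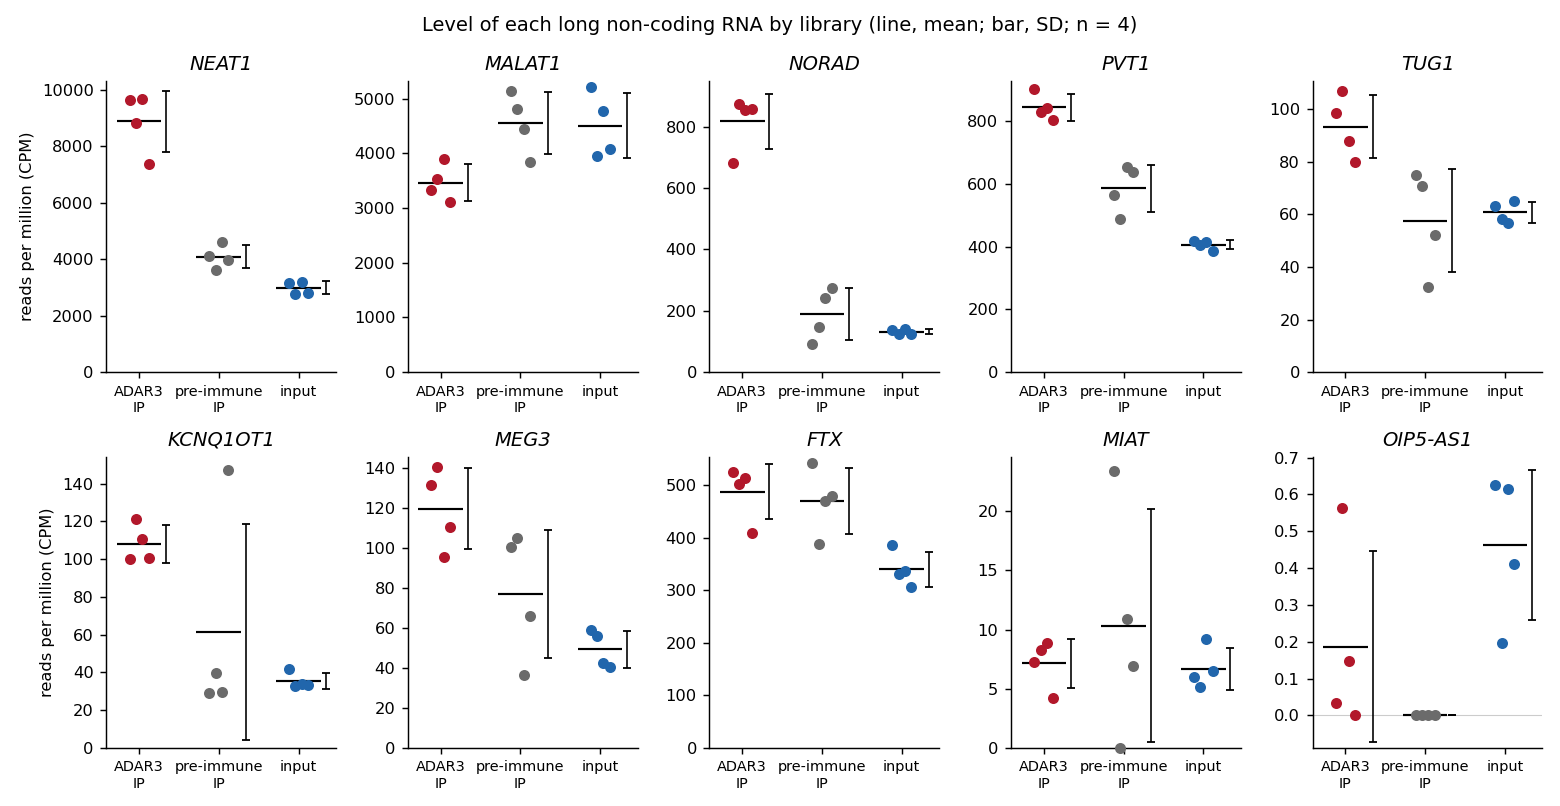
CPM (vertical axes, linear, each panel on its own scale) of the 10 long non-coding RNAs in the 4 ADAR3 IP, 4 pre-immune IP and 4 input libraries; points are libraries, lines means and bars SD. All 4 ADAR3 IP points lie above both other groups for NEAT1, NORAD, PVT1 and TUG1 (for TUG1 in CPM only), the MALAT1 mean is lowest in ADAR3 IP, and OIP5-AS1 is near 0 throughout; an SD bar that passes below 0 is drawn in full.

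NEAT1 (ENSG00000245532, chr11:65422798-65445540) is the RNA around which paraspeckles assemble. Its levels were 9632, 8809, 9670 and 7379 CPM in ADAR3 IP, against 4105, 3629, 4610 and 3966 CPM in pre-immune IP and 3159, 2780, 3198 and 2781 CPM in input. The 3 groups did not overlap, with ADAR3 IP highest and input lowest, an order whose share over all tested genes was not counted. The mean was 8872 ± 1072 CPM for ADAR3 IP, 4078 ± 407 for pre-immune IP and 2979 ± 230 for input (SD, n = 4 each). Over pre-immune IP, NEAT1 rose by 1.04 ± 0.14 on the log2 scale (SE, limma adjusted p = 0.0021), or 0.79 above the median of all genes tested. A lower log2 fold change over pre-immune IP was found for 77.2% of all tested genes, so larger ones were common. With variance weights per group the adjusted p of limma was 0.108, which ends the call; the estimate stayed the same. RefSeq lists 2 transcripts, which were counted as 1 gene here. The long isoform is the one that builds paraspeckles.

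MALAT1 (ENSG00000251562), an abundant RNA of nuclear speckles whose gene neighbours NEAT1, had its lowest mean in ADAR3 IP. It had 3323, 3528, 3895 and 3110 CPM in ADAR3 IP, 5149, 4805, 4440 and 3836 CPM in pre-immune IP, and 5217, 3953, 4767 and 4080 CPM in input. The ADAR3 IP libraries were all lower than the lowest input library, but ADAR3 IP replicate 3 lay above pre-immune IP replicate 4. That overlap depends on the scaling. On the normalized counts that were tested, MALAT1 ran from 27660 to 34226 in ADAR3 IP, against 37215 to 49043 in pre-immune IP, and the groups did not overlap. The means were 3464 ± 334 CPM for ADAR3 IP, 4557 ± 561 for pre-immune IP and 4504 ± 595 for input (SD, n = 4 each), so the pre-immune IP level was within the spread of input. The log2 fold change over pre-immune IP was -0.47 ± 0.14 (SE) and missed the threshold (limma adjusted p = 0.0906). Without pre-immune IP replicate 4 it was -0.54 with a limma adjusted p of 0.0438. Leaving out any other single IP library gave a limma adjusted p of 0.0934 to 0.269, past the threshold in none. RefSeq places an antisense RNA, TALAM1, over 7205 bases of MALAT1, and although the library kit keeps strand, the labels do not give the strand setting of the counting. Reads of the pair therefore may not be separated.

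Because a change in scaling moves all genes of a library together, reads were also divided by the MALAT1 reads of the same library. No library total or TMM factor enters this step, but the MALAT1 count then acts as the scaling factor of each library. The division was chosen after the levels were seen. Since MALAT1 itself had its lowest mean in ADAR3 IP, dividing by it widens the gap. The log2 ratio of group means, ADAR3 IP over pre-immune IP, was 1.12 for NEAT1 in CPM and 1.5 per MALAT1 read, and for NORAD 2.12 in CPM and 2.44 per MALAT1 read. For NEAT1 the ratio was 2.90, 2.50, 2.48 and 2.37 in ADAR3 IP, against 0.797, 0.755, 1.04 and 1.03 in pre-immune IP and 0.605, 0.703, 0.671 and 0.682 in input. More NEAT1 than MALAT1 reads were thus counted in every ADAR3 IP library and fewer in every input library, and the groups did not overlap. For NORAD it was 0.205, 0.248, 0.2199 and 0.276 in ADAR3 IP, against 0.0176, 0.0308, 0.0542 and 0.0717 in pre-immune IP and 0.0264, 0.0313, 0.0293 and 0.0308 in input. The ADAR3 IP libraries stood apart, while the pre-immune IP libraries lay on both sides of input. PVT1, TUG1, MEG3 and FTX also separated on this measure, although none of them passed the main limma test. In CPM the 2 IPs overlapped for MEG3 and FTX, so their separation appears only after dividing by MALAT1. It is therefore no evidence of a difference between the IPs for these RNAs. For FTX the ratio was 0.132 to 0.158 in ADAR3 IP against 0.0809 to 0.125 in pre-immune IP. MEG3 had 0.0246 to 0.0398 in ADAR3 IP against 0.00816 to 0.0218 in pre-immune IP. KCNQ1OT1 and MIAT overlapped. How many of all tested genes separate per MALAT1 read was not counted. The ratios describe each RNA relative to MALAT1 only.

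**Figure D2:**
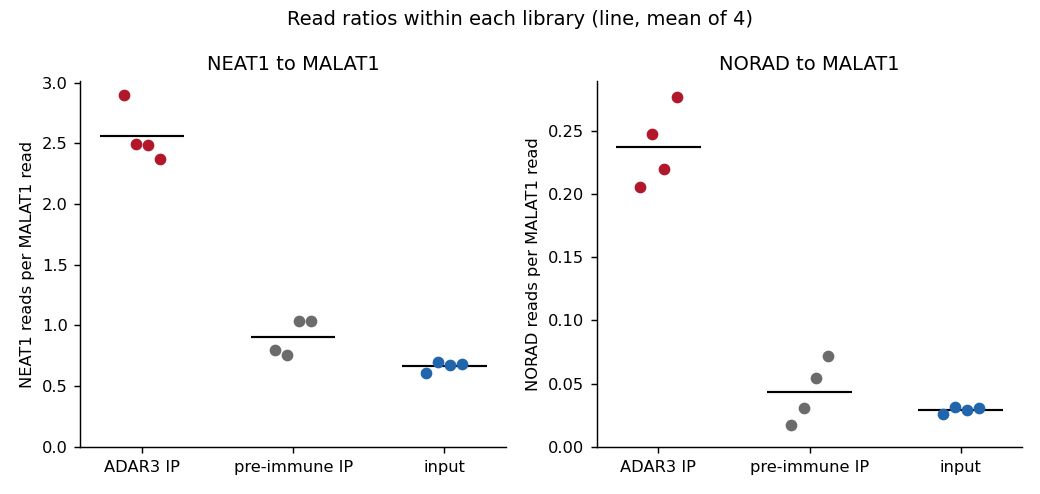
Reads of NEAT1 (left) and NORAD (right) per MALAT1 read (vertical axes, linear, from 0) in each of the 12 libraries, with the mean of 4 as a line. ADAR3 IP runs from 2.37 to 2.90 for NEAT1 and from 0.205 to 0.276 for NORAD, above every library of the other groups.

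MIAT (ENSG00000225783, chr22:26646429-26676478), a nuclear RNA best known from neurons, was scarce. It had 7.25, 8.29, 8.88 and 4.21 CPM in ADAR3 IP, 23.5, 0, 10.9 and 6.93 CPM in pre-immune IP, and 5.95, 5.14, 9.23 and 6.49 CPM in input. All 3 groups overlapped, and pre-immune IP spread most. The 0 in pre-immune IP replicate 2 allows up to 1.07 CPM (3 reads; counting error only). Its log2 fold change, ADAR3 IP over pre-immune IP, was 0.83 ± 1.61 (SE; limma adjusted p = 0.796), although mean levels were 7.16 ± 2.08 CPM for ADAR3 IP and 10.3 ± 9.85 CPM for pre-immune IP (SD, n = 4 each). Without the library at 0 it was -0.87 (limma adjusted p = 0.499), and with all libraries kept it was -0.55 with edgeR and -0.61 with DESeq2. Under limma the pseudocount moved it between 0.31 and 1.65, so neither its sign nor its size is settled. RefSeq places MIATNB over 3636 bases of the gene.

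PVT1, KCNQ1OT1, MEG3 and FTX are transcripts linked to the regulation of genes near their own. PVT1 (ENSG00000249859, chr8:127794524-128101256) neighbours the MYC oncogene and is often amplified with it. Its levels were 902, 828, 842 and 802 CPM in ADAR3 IP, 565, 489, 653 and 636 CPM in pre-immune IP, and 419, 406, 416 and 385 CPM in input. As for NEAT1, the 3 groups were fully separated in the order ADAR3 IP, pre-immune IP, input. The share of all tested genes with this order was not counted. RefSeq lists 7 other genes that overlap the PVT1 span, 4 of them microRNA genes, and reads shared with them cannot be assigned. Means were 844 ± 42.1 CPM for ADAR3 IP, 586 ± 74.9 CPM for pre-immune IP and 406 ± 15.02 CPM for input (SD, n = 4 each). PVT1 had a log2 fold change of 0.45 ± 0.11 over pre-immune IP (SE, limma adjusted p = 0.0526). Without pre-immune IP replicate 4 it was 0.51 with a limma adjusted p of 0.0235. Leaving out any other single IP library gave a limma adjusted p of 0.0562 to 0.1996, past the threshold in none.

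KCNQ1OT1 (ENSG00000269821, chr11:2608328-2699994) is an imprinted antisense RNA that silences neighbouring genes on the same chromosome, and it lies entirely within KCNQ1. It had 99.8, 121, 111 and 101 CPM in ADAR3 IP, 29.1, 39.7, 29.4 and 147 CPM in pre-immune IP, and 41.6, 32.8, 34.1 and 33.4 CPM in input. Pre-immune IP replicate 4, with 276 reads of KCNQ1OT1, was above every other library of the series, while the other 3 pre-immune libraries were close to input. With all libraries its log2 fold change over pre-immune IP was 1.11 ± 0.46 (SE; limma adjusted p = 0.24). Without pre-immune IP replicate 4 it was 1.67 (limma adjusted p = 0.00255). Leaving out any other single IP library gave a limma adjusted p of 0.298 to 0.484. The ratio of mean CPM was 3.31 without replicate 4, against 1.76 with it, a comparison chosen after the levels were seen. Since that library stands out by its KCNQ1OT1 level itself, the lower p is no separate evidence of a difference. Its reads are separate from those of KCNQ1 only if the counting used strand.

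MEG3 (ENSG00000214548, chr14:100826108-100861026) is an imprinted, maternally expressed RNA that restrains growth. It had 132, 140, 95.7 and 111 CPM in ADAR3 IP, 100.3, 105, 36.2 and 66.1 CPM in pre-immune IP, and 58.7, 55.8, 42.5 and 40.3 CPM in input. ADAR3 IP overlapped pre-immune IP but not input. The log2 fold change over pre-immune IP was 0.66 ± 0.34 (SE; limma adjusted p = 0.344), and 0.30 without pre-immune IP replicate 3 (limma adjusted p = 0.433).

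FTX (ENSG00000230590, chrX:74028136-74293574), an RNA of the X-inactivation centre, differed between the IPs by less than the spread of their libraries. It had 525, 503, 514 and 410 CPM in ADAR3 IP, 543, 389, 470.3 and 479 CPM in pre-immune IP, and 386, 330.2, 338 and 307 CPM in input. Every IP library lay above every input library. Its log2 fold change, ADAR3 IP over pre-immune IP, was -0.03 ± 0.14 (SE; limma adjusted p = 0.93), and 0.12 with TMM factors, so the sign depends on the scaling. RefSeq lists 18 other genes that overlap the FTX span, 5 of them microRNA genes, and reads shared with them cannot be assigned from the gene totals.

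NORAD (ENSG00000260032), an unspliced cytoplasmic RNA that carries many binding sites for Pumilio proteins, showed the largest difference of the 9 RNAs tested. Its levels were 682, 873, 857 and 860 CPM in ADAR3 IP, against 90.4, 148, 241 and 275 CPM in pre-immune IP and 138, 124, 140 and 125 CPM in input. Every ADAR3 IP library was far above every library of the other groups, while pre-immune IP spread around and above input. The mean was 818 ± 90.8 CPM for ADAR3 IP, 189 ± 84.6 for pre-immune IP and 132 ± 8.24 for input (SD, n = 4 each). NORAD rose by 2.16 ± 0.29 on the log2 scale over pre-immune IP (SE; limma adjusted p = 0.00198), or 1.90 above the median of all genes tested. Of all tested genes, 90.8% had a lower log2 fold change over pre-immune IP. Mean CPM in ADAR3 IP was 6.22 times that in input, and 99.8% of tested genes had a lower ratio.

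TUG1 (ENSG00000253352, chr22:30969265-30979395), found in nucleus and cytoplasm and listed by RefSeq as protein-coding, had 98.7, 107, 88.1 and 79.8 CPM in ADAR3 IP. It had 75.2, 70.8, 32.3 and 52.3 CPM in pre-immune IP and 63.2, 58.2, 56.6 and 65.1 CPM in input. In CPM every ADAR3 IP library lay above every library of the other groups, by a small margin. On the normalized counts that were tested, ADAR3 IP replicate 4, at 709.8, lay below pre-immune IP replicate 1, at 716, so the IPs overlapped. Pre-immune IP and input overlapped. TUG1 had a log2 fold change of 0.68 ± 0.297 over pre-immune IP (SE; limma adjusted p = 0.266), and 0.39 without pre-immune IP replicate 3 (limma adjusted p = 0.284).

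OIP5-AS1 (ENSG00000247556, chr15:41282697-41313338), a conserved cytoplasmic RNA, was barely counted at all. It had 1, 17, 4 and 0 reads in ADAR3 IP, 0 reads in each of the 4 pre-immune IP libraries, and 8, 2, 3 and 4 reads in input. The level was at most 0.564 CPM in ADAR3 IP and 0.626 CPM in input, and the 0 reads in pre-immune IP allow up to 0.607 to 1.60 CPM per library. No difference was detectable at these counts. The RefSeq span of the gene shares 4066 bases with OIP5, and the labels do not say how reads of overlapping genes were counted.

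**Figure D3:**
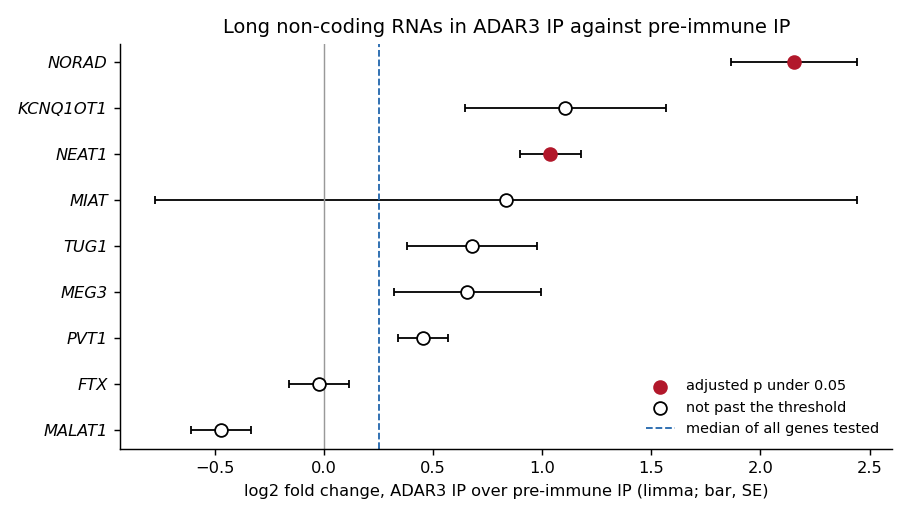
Log2 fold change of ADAR3 IP over pre-immune IP (horizontal axis; limma on log2(normalized count + 1), bars SE, 4 libraries each) for the 9 RNAs tested, with the median of all 11112 genes as a dashed line. NORAD (2.16) and NEAT1 (1.04) are filled as past the adjusted threshold; MALAT1 (-0.47) is lowest.

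NEAT1 and NORAD were also called by edgeR and in the authors' deposited table, although NEAT1 was not with variance weights per group (limma adjusted p = 0.108). The quasi-likelihood test of edgeR, run on recovered reads, called NEAT1, NORAD and PVT1 higher, 3 of 9, where 2.69% of the same genes were called, and none lower, where 1.75% were. The authors' deposited table also had NEAT1, NORAD and PVT1 higher at its adjusted p under 0.05, 3 of 9 where 8.75% of its 17946 genes were. In the authors' deposited table MALAT1 was lower, 1 of 9 where 5.63% were, with a log2 fold change of -0.48 and an adjusted p of 0.00315. In CPM, NEAT1, NORAD, PVT1 and TUG1 had every ADAR3 IP library above every pre-immune IP library, 4 of 9 where 10.7% of all tested genes did. None of the 9 had every ADAR3 IP library below, where 5.31% did. On normalized counts, NEAT1, NORAD and PVT1 had every ADAR3 IP library above, 3 of 9 where 8.8% of all tested genes did, and MALAT1 had every one below, 1 of 9 where 6.68% did.

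Levels were then set beside input. Normalization was done separately for the IP table and the input table, so these differences are described without a test. In ADAR3 IP, 7 of the 9 RNAs were above input in every library (NORAD, KCNQ1OT1, NEAT1, MEG3, PVT1, TUG1 and FTX), where 29.3% of all tested genes were. MALAT1 was below in every library, 1 of 9 where 31.7% were, but with TMM factors over the 12 libraries it overlapped input. The median log2 ratio of mean CPM, ADAR3 IP over input, was 1.05 over the 9 RNAs and 0.0019 over all genes tested. KCNQ1OT1 stood at 3.05 times its input level, NEAT1 at 2.98, MEG3 at 2.42, PVT1 at 2.08, TUG1 at 1.54 and FTX at 1.43, with MIAT at 1.07 and MALAT1 at 0.769.

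The pre-immune IP shared part of this pattern. NEAT1, PVT1 and FTX were above input in every pre-immune IP library, 3 of 9 where 5.93% of all tested genes were, and none of the 9 was below in every library, where 16.3% were. The median log2 ratio of pre-immune IP over input was 0.52 over the 9 RNAs and -0.05 over all tested genes. Pre-immune IP over input was 1.37 for NEAT1, 1.44 for PVT1, 1.38 for FTX, 1.43 for NORAD and 1.01 for MALAT1. For KCNQ1OT1 it was 1.73, and leaving out pre-immune IP replicate 4 gave 32.7 CPM, below the input mean of 35.5 CPM. In CPM, every ADAR3 IP library exceeded every library of both other groups for NEAT1, NORAD, PVT1 and TUG1, 4 of 9, as it did for 7.76% of all tested genes. TUG1 leaves that group on normalized counts.

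**Figure D4:**
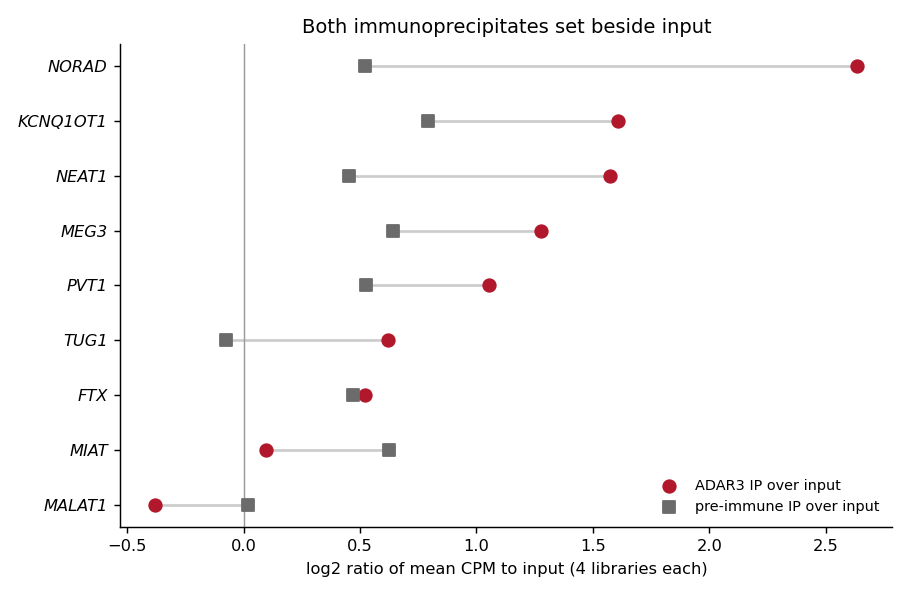
Log2 ratio of mean CPM to input (horizontal axis, 4 libraries per mean, no test) for ADAR3 IP (red circles) and pre-immune IP (grey squares) in the 9 RNAs tested. NORAD reaches 2.64 in ADAR3 IP against 0.52 in pre-immune IP, the pair almost coincides for FTX, and MALAT1 lies at -0.38 in ADAR3 IP against 0.02 in pre-immune IP.

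Replicates differed most in pre-immune IP for 8 of the 9 RNAs, all but NEAT1. The median SD of log2(normalized count + 1) between replicates was 0.18 for ADAR3 IP, 0.61 for pre-immune IP and 0.13 for input. Over all tested genes it was 0.21 for ADAR3 IP, 0.81 for pre-immune IP and 0.11 for input. For NEAT1 the SD was 0.18 for ADAR3 IP, 0.089 for pre-immune IP and 0.098 for input. Within pre-immune IP it was 0.16 for PVT1 and 0.19 for MALAT1. It was 0.71 for NORAD, 0.77 for MEG3 and 1.15 for KCNQ1OT1, and 3.49 for MIAT with its library at 0. Every pre-immune IP library held fewer reads than every ADAR3 IP library, and the part of depth in these results was not tested. Each library pools many cells, so fewer cells with an RNA and less RNA per cell cannot be told apart.

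The genes most like NEAT1 and MALAT1 over the 12 libraries were sought among 8792 genes with a mean of at least 10 CPM in each group. Likeness was the root mean square difference of log2(CPM + 1), each gene centred on its own mean. The nearest to NEAT1 was ENSG00000153815, at 0.139, against a median of 0.859 over those genes. That gene had 873 ± 68.6 CPM for ADAR3 IP, 405 ± 63.2 for pre-immune IP and 269.8 ± 7.37 for input (SD, n = 4 each). The nearest to MALAT1 was ENSG00000121152, at 0.0952 against a median of 0.5702, with 40.9 ± 4.24 CPM for ADAR3 IP, 53.2 ± 9.98 for pre-immune IP and 52.5 ± 6.09 for input (SD, n = 4 each). The files do not pair these IDs with names.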

How the data were processed

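The authors deposited 1 table of 8 IP libraries and 1 of 4 input libraries. Per the submitters' processing notes, STAR 2.7.7a, featureCounts, DESeq2 and GRCh38 were used, in roles the notes do not give. The deposited values are a normalized signal: 100% of them were whole multiples of 1 read (tolerance 0.001 reads), so whole reads were recovered by dividing by that step. The authors' log2 fold changes and adjusted p-values were copied from the deposited IP table. limma 3.58.1 in R 4.3.3 (trend, pseudocount 1, minimum mean 50, adjusted p under 0.05) tested ADAR3 IP against pre-immune IP. The minimum was taken from an earlier report on these data. On this scale the changes of low genes depend on the pseudocount. The median log2 fold change over the genes tested was 0.163 at a minimum of 100 and 0.25 at 50. It was 0.37 at a minimum of 10 and 0.447 without a filter. The limma and edgeR steps were run on simulated counts with known changes. That check required the direction and median size of those changes to be right. It set no limit on false calls, so it does not bear on the calls above. edgeR 4.0.16 on recovered reads called 299 genes higher and 195 lower, limma 259 and 193. DESeq2 1.42.0 was an alternative. It called 1571 genes higher and 1010 lower of 17946, the same counts as the authors' deposited table, so it is no separate evidence beside that table.

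The members and lists were chosen with earlier results of these data known. The rule named all 10 RNAs plus the gene nearest to NEAT1 and to MALAT1. Names came with the choice of members. All 10 matched RefSeq by symbol, which gave positions, but 0 of its 59792 genes carry an Ensembl ID. Lists of paraspeckle proteins, other long non-coding RNAs, neighbouring genes and cell type markers were therefore not analysed here.

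Correlations between same-numbered ADAR3 IP and pre-immune IP libraries, over the 11112 genes tested, ran from -0.00165 to 0.0236, so the numbers were not taken as pairs. Values over all genes cannot decide whether single RNAs varied in pairs. Fits with a replicate block are given below.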

Additional observations from a re-analysis of the deposited data

Results flagged for a closer look

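In 30 sets of 4 libraries (10 RNAs in 3 groups), the library farthest from the rest was compared with Dixon's 95% critical value for 4 samples, and 3 sets passed it. Chance marks about 1 set in 20. KCNQ1OT1 in pre-immune IP replicate 4, at 147 CPM, lay far above the other 3 pre-immune libraries (29.1 to 39.7 CPM), with a gap of 0.91 of the range. KCNQ1OT1 in input replicate 1, at 41.6 CPM, lay above the other input libraries (32.8 to 34.1 CPM), with a gap of 0.856 of a narrow range. NORAD in ADAR3 IP replicate 1, at 682 CPM, lay below the other ADAR3 IP libraries (857 to 873 CPM), with a gap of 0.913 of the range, and above every library of the other groups.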

How the results depend on the processing

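NORAD passed limma's threshold or its alternative's in all 20 settings run (log2 fold change 1.85 to 2.39) and NEAT1 in 19 (0.995 to 1.18). With variance weights per group, 1 RNA was called higher, NORAD. PVT1 passed in 9 of 20 settings (adjusted p 0.000265 to 0.283), MALAT1 in 5 (0.00315 to 0.404), KCNQ1OT1 in 1 (0.00255 to 0.484), and TUG1, MEG3 and FTX in 0 of 20 and MIAT in 0 of 19 (too low for a minimum of 100). The number called lower became 1, MALAT1, without a filter, at minimums of 10 and 100, and with DESeq2. Leaving out 1 library gave 2 to 4 called higher and 0 to 1 lower; the 4 and the 1 came without pre-immune IP replicate 4. FTX turned to 0.12 with TMM factors, 0.06 with library totals and 0.033 with edgeR. Leaving out 1 library gave -0.10 to 0.057, above 0 without ADAR3 IP replicate 4 or pre-immune IP replicate 1 or 4 (0.0021). MIAT turned to -0.55 with edgeR, -0.61 with DESeq2 and -0.87 without pre-immune IP replicate 2 (up to 1.73 without another library). Except where a left-out library shows it, the cause was not tested. The median log2 fold change over all tested genes was 0.39 with TMM factors, 0.33 with library totals and -0.00063 with edgeR, against 0.25. With DESeq2 it was 0.05 over 17946 genes. Calls over the 11112 tested genes were 259 higher and 193 lower, against 449 and 129 with TMM factors. They were 142 and 55 with group weights, 221 and 89 with edgeR's block, and 106 to 446 and 65 to 345 with 1 library left out. Other settings tested other sets of genes. Calls were 659 and 244 of 15182 at a minimum of 10, 1493 and 233 of 28556 without a filter, and 1571 and 1010 of 17946 with DESeq2.

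On normalized counts, an alternative chosen after seeing the data, 3 RNAs had every ADAR3 IP library above every pre-immune IP library, against 4 in CPM, and 1, MALAT1, had every one below, against 0. Beside input, TMM factors over 12 libraries left 0 RNAs, not MALAT1, below input in every ADAR3 IP library; the 7 above stayed 7 in every setting. Leaving out 1 library gave 3 to 4 RNAs above input in pre-immune IP.

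With the replicate block, limma and edgeR each called 2 RNAs higher, NEAT1 and NORAD, and 0 lower, and no other call changed except PVT1, lost by edgeR (adjusted p 0.0814); edgeR with the block gave FTX 0.036. OIP5-AS1 and MIAT had the fewest reads of the 10 RNAs, and why was not tested.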
